A study of Rattus norvegicus with 18 samples.

Results

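Slc34a1 and Slc3a1, which encode a phosphate transporter and a subunit of the cystine transporter, were followed in rat kidney RNA as the apical transporter genes of the proximal tubule. They were chosen by gene name, as 2 of the 29 features of the deposited count table. The table also lists 14 further nuclear genes, 12 mitochondrial ones and 1 feature with no name. The study fed plantain flour to diabetic and healthy rats and sequenced kidney RNA in 18 libraries, 3 in each of 6 groups. All rats were male and 23 weeks old. Among the diabetic rats, DM had water alone, LP had flour at 1 g per kg, MP at 2 g per kg and HP at 4 g per kg. Healthy rats received a high dose of flour (NH, no dose in g per kg given by its label) or water alone (NC). Neither the strain nor the way diabetes was induced is stated in the sources used here. The labels do not say whether the 3 libraries of a group are 3 animals, and the p-values below reflect only how far these libraries differ.

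Slc34a1 encodes NaPi-IIa, the sodium-phosphate cotransporter that takes most filtered phosphate back from the urine in rodents. It sits in the brush border of the proximal tubule and is withdrawn from it under parathyroid hormone and FGF23. Slc3a1 encodes rBAT, the heavy chain that carries the transport subunit b0,+AT (Slc7a9) to the same membrane, where the pair takes up cystine and basic amino acids. Loss of SLC3A1 in humans causes cystinuria. In rodents NaPi-IIa is most abundant in the early convoluted tubule, while rBAT is most abundant in the late straight segment, so the ratio of their transcripts sets an early-segment gene against a late-segment one.

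In the deposited table Slc34a1 (ENSRNOG00000015262) lies on chromosome 17 from 9747752 to 9762813 on the minus strand, with a gene length of 2526 bases. Slc3a1 (ENSRNOG00000007006) lies on chromosome 6 from 8284878 to 8318674 on the plus strand, with a length of 2347 bases. Which rat build these positions refer to is not given in the sources used. The promoters of both genes are shown as a description, and whether they bear on the results was not tested. They are RefSeq sequences of another build (GRCr8), from 250 bases before to 50 bases after the gene start, at chr17:9238934-9239233 (minus strand) for Slc34a1 and chr6:15394700-15394999 (minus strand, while the deposited table gives plus) for Slc3a1. Capitals mark matches, on either strand, to the motifs searched.
Slc34a1: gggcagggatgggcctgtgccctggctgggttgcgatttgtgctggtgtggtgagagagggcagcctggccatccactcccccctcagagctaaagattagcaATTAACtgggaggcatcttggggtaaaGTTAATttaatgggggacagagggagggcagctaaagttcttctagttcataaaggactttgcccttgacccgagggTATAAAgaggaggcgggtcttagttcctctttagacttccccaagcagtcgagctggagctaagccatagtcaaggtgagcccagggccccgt
Slc3a1: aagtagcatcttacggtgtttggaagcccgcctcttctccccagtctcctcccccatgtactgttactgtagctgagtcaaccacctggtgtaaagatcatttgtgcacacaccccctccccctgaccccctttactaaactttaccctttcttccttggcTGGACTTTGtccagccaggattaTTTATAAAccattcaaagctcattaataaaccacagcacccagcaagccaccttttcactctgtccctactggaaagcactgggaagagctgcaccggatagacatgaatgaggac

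The Slc34a1 window held GTTAAT, a core of hepatocyte nuclear factor 1 sites, at 2 places that begin 147 and 120 bases before the start, the first on the opposite strand. That motif is present in 7.45% of the 33469 promoter windows of the same length. The Slc3a1 window held CAAAGTCCA, a hepatocyte nuclear factor 4 sequence, on the opposite strand 89 bases before the start. It is present in 0.391% of the windows. TATAAA, found in 14.2% of windows, lay 43 bases before the start in Slc34a1 and in 2 overlapping matches, 66 and 64 bases before it, in Slc3a1. CCAAT (37.5% of windows), GGGCGG (33.1%) and AGGTCA (16.2%) had no match in either window. GTTAAT had none in the Slc3a1 window and CAAAGTCCA none in that of Slc34a1. These matches describe the letters of the windows and are no evidence of binding.

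The libraries differed in more than the 2 genes. The counts of the listed features summed to between 4440262 and 10306858 per library, and these sums are not depths, since the table covers 29 features. Mitochondrial genes made up 82.0 to 83.3% of all counts with a gene name in DM, 77.1 to 78.7% in LP, 79.3 to 82.1% in MP, 84.8 to 88.7% in HP, 94.4 to 95.5% in NH and 92.7 to 93.3% in NC, and the part of this share in the results below was not tested. With such shifts, a change in the count of 1 gene depends on what it is scaled to. Each gene was therefore tested under 4 scalings: trimmed mean of M-values (TMM), the geometric mean of the 14 other nuclear genes (nuclear scaling), factors by the median of ratios, and no scaling. The ratio of Slc34a1 to Slc3a1 within a library needs no scaling. Counting error was at most 0.685% of a value of either gene. As a check of the tissue, 10 of the 17 proximal tubule markers searched were among the listed features, both transporters included. Of 11 markers of other kidney cells and of blood searched in the same way, 0 were among the listed features, so their part in the results was not tested. In whole kidney, fewer tubule cells and less RNA per cell cannot be told apart.

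Slc34a1, the phosphate transporter, had its highest deposited counts in diabetic kidneys given the low or medium dose. It was counted 35371, 34168 and 32476 times in DM, 44402, 41985 and 47069 times in LP, 41104, 50477 and 37264 times in MP and 30138, 35895 and 36063 times in HP. Healthy kidneys had 21300, 31690 and 30685 counts in NH and 22248, 21887 and 26501 in NC. All 12 diabetic libraries but HP replicate 1 lay above all 6 healthy ones. The means were 34005 ± 1454 in DM, 44485 ± 2543 in LP, 42948 ± 6797 in MP, 34032 ± 3373 in HP, 27892 ± 5731 in NH and 23545 ± 2566 in NC (SD, n = 3). From the highest mean down the order was LP, MP, HP, DM, NH and NC, in which NC overlapped NH, DM overlapped HP and MP overlapped LP, while NH and DM, and HP and MP, did not overlap.

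Slc3a1, the rBAT gene, ran in another order, with its lowest counts at the low dose. It had 31394, 29292 and 30813 counts in DM, 22990, 23698 and 25405 in LP, 27533, 32106 and 25605 in MP and 40527, 39190 and 38220 in HP. In healthy kidneys it had 28567, 35727 and 38352 counts in NH and 41441, 41250 and 47684 in NC. Means were 30500 ± 1085 in DM, 24031 ± 1241 in LP, 28415 ± 3339 in MP, 39312 ± 1158 in HP, 34215 ± 5065 in NH and 43458 ± 3661 in NC (SD, n = 3), so that the order from the lowest up was LP, MP, DM, NH, HP and NC. Overlap was seen between MP and DM, DM and NH, and NH and HP, and none between LP and MP or between HP and NC. For the deposited counts of either gene, the share of all features without overlap was not computed.

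Set against the geometric mean of the 14 other nuclear genes, Slc3a1 moved far more between groups than Slc34a1. The relative level of Slc34a1 was 0.686 ± 0.0251 in DM, 0.786 ± 0.0493 in LP, 0.715 ± 0.0403 in MP, 0.675 ± 0.0780 in HP, 1.08 ± 0.126 in NH and 0.672 ± 0.0204 in NC (SD, n = 3). NH stood apart from the other 5 groups, whose libraries overlapped at each step of the order (NC, HP, DM, MP, LP). For Slc3a1 it was 0.615 ± 0.00923 in DM, 0.424 ± 0.00838 in LP, 0.475 ± 0.0130 in MP, 0.779 ± 0.0169 in HP, 1.33 ± 0.0569 in NH and 1.24 ± 0.0101 in NC. No 2 neighbouring groups of Slc3a1 overlapped on this scale. The 12 diabetic libraries lay between 0.415 and 0.790 and the 6 healthy ones between 1.23 and 1.37. Of all 29 features, 58.6% did not overlap between MP and DM, 65.5% between DM and HP and 82.8% between NC and NH on this scale. No such share was computed for LP with MP or HP with NC. The group means of the relative level spanned 3.13-fold for Slc3a1 and 1.60-fold for Slc34a1. In deposited counts the spans were alike, 1.81-fold for Slc3a1 and 1.89-fold for Slc34a1. The geometric mean of the 14 genes itself averaged 25722 counts in NH and 59838 in MP, so the contrast depends on this reference.

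**Figure D1:**
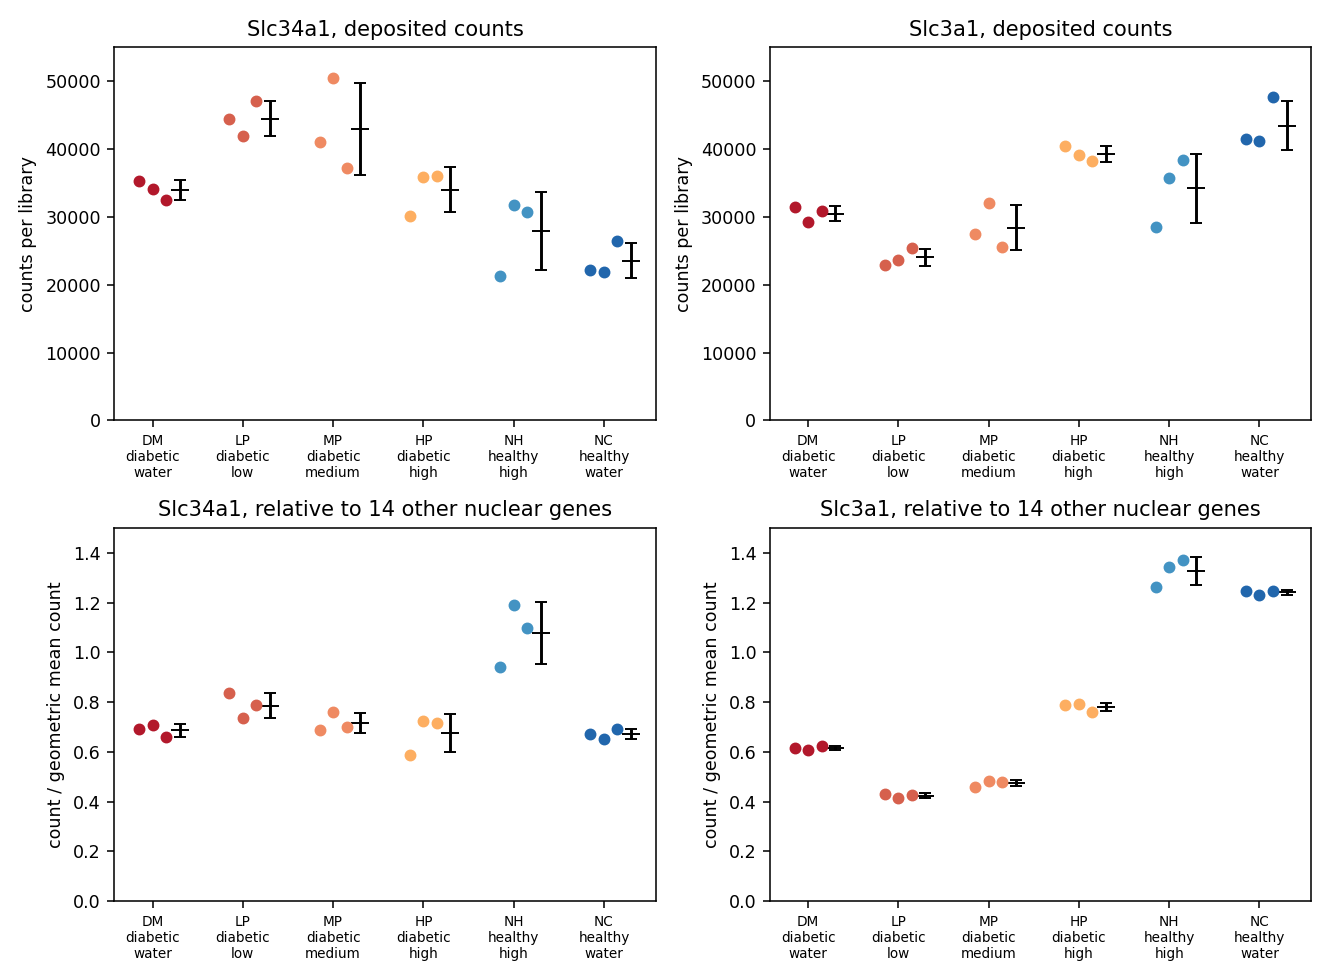
Levels of Slc34a1 (left) and Slc3a1 (right) in each library, as deposited counts (top) and as the count divided by the geometric mean count of the 14 other nuclear genes (bottom). Points are libraries, and bars are the group mean ± SD (n = 3). On the lower scale Slc3a1 lies between 0.415 and 0.790 in diabetic libraries and above 1.2 in healthy ones, while Slc34a1 is highest in NH.

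The ratio of Slc34a1 to Slc3a1 counts separated the groups with little spread within them. It was 1.13, 1.17 and 1.05 in DM, 1.93, 1.77 and 1.85 in LP, 1.49, 1.57 and 1.46 in MP and 0.744, 0.916 and 0.944 in HP. In healthy kidneys it was 0.746, 0.887 and 0.800 in NH and 0.537, 0.531 and 0.556 in NC. NC was lowest and LP highest, HP overlapped NH, and no other neighbours in the order overlapped. Such separation was common among the 28 features set against Slc3a1. Of these, 82.1% did not overlap between NC and NH, 50% between HP and DM and 75% between DM and MP. No such share was computed for MP with LP. Group means of the Slc34a1 to Slc3a1 ratio were 1.12 ± 0.0570 in DM, 1.85 ± 0.0798 in LP, 1.51 ± 0.0597 in MP, 0.868 ± 0.108 in HP, 0.811 ± 0.0713 in NH and 0.541 ± 0.0131 in NC (SD, n = 3), a 3.42-fold span. Per base of gene length, the level of Slc34a1 was 1.04 times that of Slc3a1 in DM, 1.72 in LP, 1.40 in MP, 0.806 in HP, 0.753 in NH and 0.503 in NC.

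**Figure D2:**
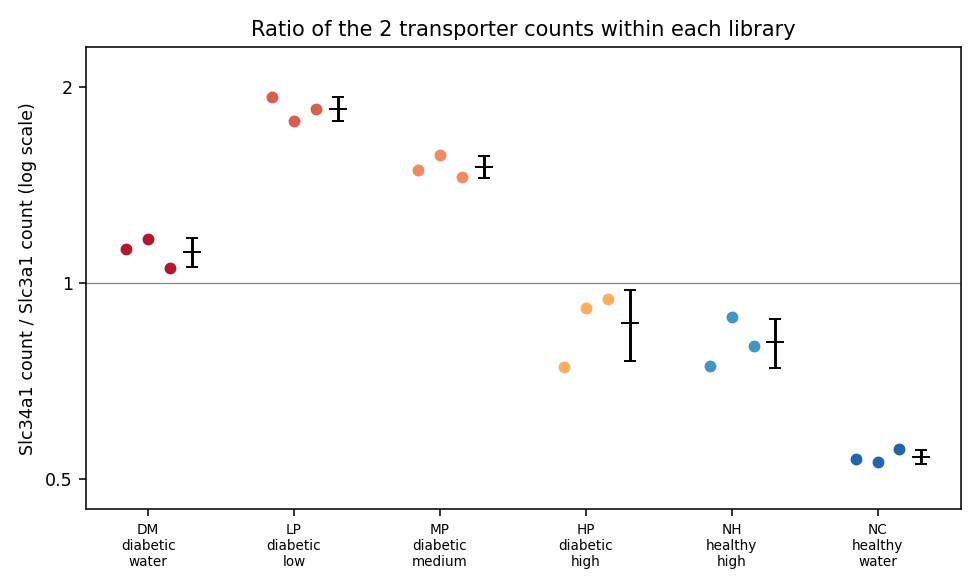
Slc34a1 count divided by Slc3a1 count in each library, on a log axis. Points are libraries and bars the group mean ± SD (n = 3). The 3 LP libraries are highest, at 1.77 to 1.93, the 3 NC libraries are lowest, at 0.531 to 0.556, and HP and NH overlap.

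Untreated diabetic kidneys had more NaPi-IIa transcripts per rBAT transcript than water-fed healthy kidneys. The ratio was 2.06 times higher in DM than in NC (log2 1.04, SE 0.085, adjusted p = 1.82e-08 in edgeR's quasi-likelihood test with Slc3a1 as the library size, adjusted over 28 features by the Benjamini-Hochberg method). The libraries did not overlap, which held for the ratio to Slc3a1 of 100% of the 28 features tested, Slc34a1 among them. In this fit 46.4% of the features were higher and 42.9% lower relative to Slc3a1, and the median change of the 15 nuclear genes other than Slc3a1 (Slc34a1 included) was 1.01, against 1.04 for Slc34a1. With 3 libraries against 3 an exact permutation test cannot go below p = 0.1, which was the value here (two-sided, adjusted p = 0.1125 over 9 ratio tests).

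Which of the genes carried this difference depended on the scaling. Slc3a1 was lower in DM relative to the 14 other nuclear genes (log2 -1.01, SE 0.040, adjusted p = 4.16e-12 by edgeR), and Slc34a1 had a value of 0.03 there (SE 0.091, adjusted p = 0.806). With unscaled counts Slc3a1 was lower (-0.51) and Slc34a1 higher (0.53). Under TMM both passed as higher, Slc34a1 with 1.46 (SE 0.20) and Slc3a1 with 0.42 (SE 0.14, adjusted p = 0.017), where 48.3% of all 29 features passed as higher and 6.9% as lower. The shares of features higher and lower were 17.2 and 65.5% with nuclear scaling, 44.8 and 48.3% with median-of-ratios factors and 34.5 and 55.2% unscaled, and 82.8% did not overlap in their level relative to the 14 genes. The TMM call of Slc3a1 was lost without NC replicate 1 or 2 or any 1 DM library (log2 0.01 to 0.40, adjusted p = 0.0501 to 0.960 by edgeR). Median-of-ratios factors put Slc34a1 at 1.06 and Slc3a1 at 0.01. The median of all 29 features was 0.10 under TMM, -1.34 with nuclear scaling, -0.31 with median-of-ratios factors and -0.84 unscaled, so Slc3a1 lay above that median under each scaling, and Slc34a1 further above it.

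At the low dose the ratio was 1.66 times higher than in untreated diabetic kidneys (LP over DM, log2 0.73, SE 0.085, adjusted p = 2.78e-06 by edgeR, exact permutation p = 0.1). Here 60.7% of the 28 features were higher relative to Slc3a1 and 3.57% lower, with a median of 0.42 over the same 15 nuclear genes. Slc3a1 was lower with nuclear scaling (log2 -0.54, SE 0.040, adjusted p = 2.04e-08) and with no scaling (-0.34, adjusted p = 0.0329), and its values were -0.26 under TMM and -0.12 with median-of-ratios factors, neither passing in edgeR. The median of all features was 0.10 under TMM, -0.18 with nuclear scaling, 0.24 with median-of-ratios factors and 0.02 unscaled. Slc34a1 was higher with median-of-ratios factors (0.61, SE 0.15, adjusted p = 0.0024 by edgeR). Its values were 0.47 under TMM, 0.39 unscaled and 0.20 with nuclear scaling, with adjusted p of 0.0848, 0.050 and 0.0878. Of the 29 features, 20.7% were higher and 6.9% lower under TMM, 13.8 and 34.5% with nuclear scaling, 37.9 and 3.45% with median-of-ratios factors and 13.8 and 10.3% unscaled. LP and DM libraries did not overlap for 69% of features in the level relative to the 14 genes and for 85.7% in the ratio to Slc3a1. The nuclear reference holds Gpx3 and Pck1, whose counts in LP averaged 228858 and 161104, against 101885 and 67806 in DM. Without these genes, a setting added after the data were seen, Slc34a1 was at 0.36 (adjusted p = 0.0028 by edgeR) and Slc3a1 at -0.37 (adjusted p = 7.23e-07).

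The medium dose showed the same direction at a smaller size. In MP over DM the ratio was 1.35 times higher (log2 0.43, SE 0.084, adjusted p = 0.000684 by edgeR, exact permutation p = 0.1), in a fit where 57.1% of the features were higher relative to Slc3a1 and 0% lower. The median over the same 15 nuclear genes was 0.13. Slc3a1 fell under 3 scalings, by 0.44 under TMM (SE 0.14, adjusted p = 0.0245 by edgeR), 0.37 with nuclear scaling and 0.27 with median-of-ratios factors, and was at -0.10 unscaled. As a background, 20.7% of features were higher and 24.1% lower under TMM, 13.8 and 34.5% with nuclear scaling, 31% and 20.7% with median-of-ratios factors and 37.9 and 0% unscaled. For 58.6% the MP and DM libraries did not overlap in the level relative to the 14 genes, and for 75% in the ratio to Slc3a1. Without any 1 DM library or MP replicate 1 the TMM value of Slc3a1 was -0.43 to -0.26 and did not pass (adjusted p = 0.0688 to 0.133 by edgeR). Slc34a1 passed under 0 of the 4 scalings, with -0.01 under TMM and 0.06 to 0.34 under the others. Nuclear scaling without Gpx3 and Pck1, whose counts averaged 257120 and 170889 in MP, called it higher, at 0.24 (adjusted p = 0.033 by edgeR). The median of all features in this comparison was -0.01 under TMM, 0.06 with nuclear scaling, 0.17 with median-of-ratios factors and 0.34 unscaled.

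At the high dose the ratio went the other way. In HP over DM it was 1.29 times lower (log2 -0.36, SE 0.084, adjusted p = 0.00224 by edgeR, exact permutation p = 0.1), where 42.9% of the features were lower relative to Slc3a1 and 3.57% higher. The median over the same 15 nuclear genes was -0.32. Slc3a1 was higher with nuclear scaling (0.34, SE 0.040, adjusted p = 1.8e-05 by edgeR) and with no scaling (0.37, adjusted p = 0.0125), and its values of -0.04 under TMM and 0.07 with median-of-ratios factors did not pass. Slc34a1 had values of -0.39 under TMM, -0.02 with nuclear scaling, -0.28 with median-of-ratios factors and 0.00 unscaled, with adjusted p between 0.119 and 0.994 in edgeR. All features had a median of -0.09 under TMM, 0.28 with nuclear scaling, 0.02 with median-of-ratios factors and 0.30 unscaled. The shares of features that passed as higher and lower were 10.3 and 27.6% under TMM, 48.3 and 10.3% with nuclear scaling, 10.3 and 20.7% with median-of-ratios factors and 55.2 and 6.9% unscaled. HP and DM did not overlap for 65.5% of features in the relative level and for 50% in the ratio to Slc3a1. HP replicate 1 had the lowest Slc34a1 count and the highest mitochondrial share (88.7%) of the HP libraries, and without it the ratio was at -0.26 (adjusted p = 0.00918 by edgeR). The part of the mitochondrial share was not tested. Without HP replicate 3 the TMM value of Slc34a1 passed, at -0.56 (adjusted p = 0.0403). The comparisons of LP, MP and HP share the DM libraries.

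The high dose set against the low and medium doses together, a comparison chosen with earlier results known, does not use the DM libraries. Slc3a1 was higher in HP under all 4 scalings, by 0.26 to 0.80 in log2 (largest adjusted p 0.048 by edgeR). This call was shared by 10.3% of the 29 features, while 13.8% were lower under all 4. The median of all features was -0.01 under TMM, 0.46 with nuclear scaling, -0.06 with median-of-ratios factors and 0.26 unscaled. Singly, the shares higher and lower were 65.5 and 13.8% with nuclear scaling, 51.7 and 20.7% unscaled, and 10.3 and 37.9% in each of the other scalings. HP did not overlap LP and MP for 48.3% of features in the relative level and for 46.4% in the ratio to Slc3a1. The Slc3a1 call was lost under at least 1 scaling when HP replicate 2, HP replicate 3, MP replicate 1 or any single LP library was left out (highest adjusted p between 0.0614 and 0.215 by edgeR). Slc34a1 was lower under 3 scalings, with -0.62 under TMM, -0.67 with median-of-ratios factors and -0.36 unscaled, and was at -0.15 with nuclear scaling (adjusted p = 0.0928 by edgeR). With Gpx3 and Pck1 left out of the nuclear genes it was lower there too, at -0.32 (adjusted p = 0.0025 by edgeR). Without HP replicate 1 its TMM value was -0.41 (adjusted p = 0.0673). The ratio was 1.93 times lower in HP (log2 -0.94, SE 0.076, adjusted p = 1.94e-08 by edgeR), where 60.7% of features were lower relative to Slc3a1 and 3.57% higher, with a median of -0.76 over the same 15 nuclear genes. Exact permutation gave p = 0.0119, the smallest that 84 splits allow, and 0.0536 after adjustment over the 9 ratio tests.

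No slope over dose was called for the ratio. The slope of the log2 ratio over DM, LP, MP and HP was -0.16 per g per kg (SE 0.081, adjusted p = 0.283 by edgeR, exact permutation p = 0.0979). Against DM the ratio was higher at the 2 lower doses and lower at the highest. In that fit 0% of features had an upward and 10.7% a downward slope relative to Slc3a1, and the median slope of the same 15 nuclear genes was -0.16. For Slc34a1 the slopes lay between -0.13 and -0.02 and passed under 0 scalings. For Slc3a1 they lay between 0.02 and 0.12 and passed with unscaled counts (adjusted p = 0.0253 by edgeR). Upward and downward slopes were called for 3.45 and 13.8% of the 29 features under TMM, 37.9 and 3.45% with nuclear scaling, 6.9 and 13.8% with median-of-ratios factors and 44.8 and 6.9% unscaled.

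In healthy rats the high dose went with a ratio 1.5 times higher than in water-fed healthy rats (NH over NC, log2 0.58, SE 0.084, adjusted p = 4.87e-05 by edgeR, exact permutation p = 0.1). Relative to Slc3a1, 57.1% of features were higher and 28.6% lower in NH, and the median of those 15 nuclear genes was -0.15. Slc34a1 was higher with nuclear scaling (0.68, SE 0.091, adjusted p = 2.89e-05 by edgeR) and with median-of-ratios factors (0.54, adjusted p = 0.00379). Its values of 0.26 under TMM and 0.24 unscaled did not pass (adjusted p of 0.296 and 0.167). Over all features the median was -0.02 under TMM, 0.42 with nuclear scaling, 0.28 with median-of-ratios factors and -0.03 unscaled. For Slc3a1 the call turned with the scaling, from lower unscaled (-0.34, adjusted p = 0.0204 by edgeR) to slightly higher with nuclear scaling (0.09, adjusted p = 0.0413), with -0.33 under TMM (adjusted p = 0.061). The TMM value passed when replicate 1 or 2 of either group was left out (-0.46 to -0.27, adjusted p = 0.01 to 0.0246 by edgeR). Among the 29 features, 20.7% were higher and 31% lower under TMM, 58.6 and 20.7% with nuclear scaling, 48.3 and 24.1% with median-of-ratios factors and 6.9 and 31% unscaled. NH and NC did not overlap for 82.8% of features in the relative level and for 82.1% in the ratio to Slc3a1.

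The effect of the high dose on the ratio differed between diabetic and healthy rats. The label of NH gives no dose in g per kg, so a difference in dose cannot be told apart from disease state. Flour went with a lower ratio in diabetic kidneys (HP over DM) and with a higher one in healthy kidneys (NH over NC), a difference between the effects of -0.95 in log2 (SE 0.12, adjusted p = 2.02e-05 by edgeR). In this fit 42.9% of the 28 features had a lower and 10.7% a higher value, and the same 15 nuclear genes had a median of -0.39. Permuting the feed labels within the diabetic and within the healthy libraries gave p = 0.005, the smallest that the 400 arrangements allow for a two-sided exact test, and 0.045 after adjustment over the 9 ratio tests. That permutation assumes no effect of flour in either set of rats, so its p-value does not test whether the effects are equal. For the genes singly, Slc34a1 had a lower value with nuclear scaling (-0.70) and median-of-ratios factors (-0.82), and -0.65 under TMM (adjusted p = 0.158 by edgeR), which passed at -0.71 without NH replicate 1. Slc3a1 had a higher value with nuclear scaling (0.25) and unscaled (0.71), and 0.29 under TMM (adjusted p = 0.487). Of all features 3.45% were called higher and 0% lower under TMM, 17.2 and 13.8% with nuclear scaling, 3.45 and 13.8% with median-of-ratios factors and 24.1 and 0% unscaled.

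Between the flour-fed groups themselves no difference in the ratio was detected. HP over NH gave a log2 value of 0.10 (SE 0.084, 95% interval -0.07 to 0.26, adjusted p = 0.286 by edgeR, exact permutation p = 0.6), where 39.3% of features were higher and 46.4% lower relative to Slc3a1, with a median of 0.66 over the same 15 nuclear genes. Without HP replicate 1 it passed, at 0.20 (adjusted p = 0.0166 by edgeR). Both genes were higher in HP under TMM (Slc34a1 0.81 and Slc3a1 0.71) and lower with nuclear scaling (-0.67 and -0.77), so neither has a direction that holds across scalings. Without NH replicate 1 the TMM values were 0.38 for Slc34a1 and 0.33 for Slc3a1 (adjusted p of 0.036 and 0.0035 by edgeR). Features higher and lower in HP made up 55.2 and 20.7% under TMM (median 0.71), 17.2 and 72.4% with nuclear scaling (median -0.77), 41.4 and 41.4% with median-of-ratios factors and 37.9 and 41.4% unscaled. The groups did not overlap for 86.2% in the relative level and for 85.7% in the ratio to Slc3a1.

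**Figure D3:**
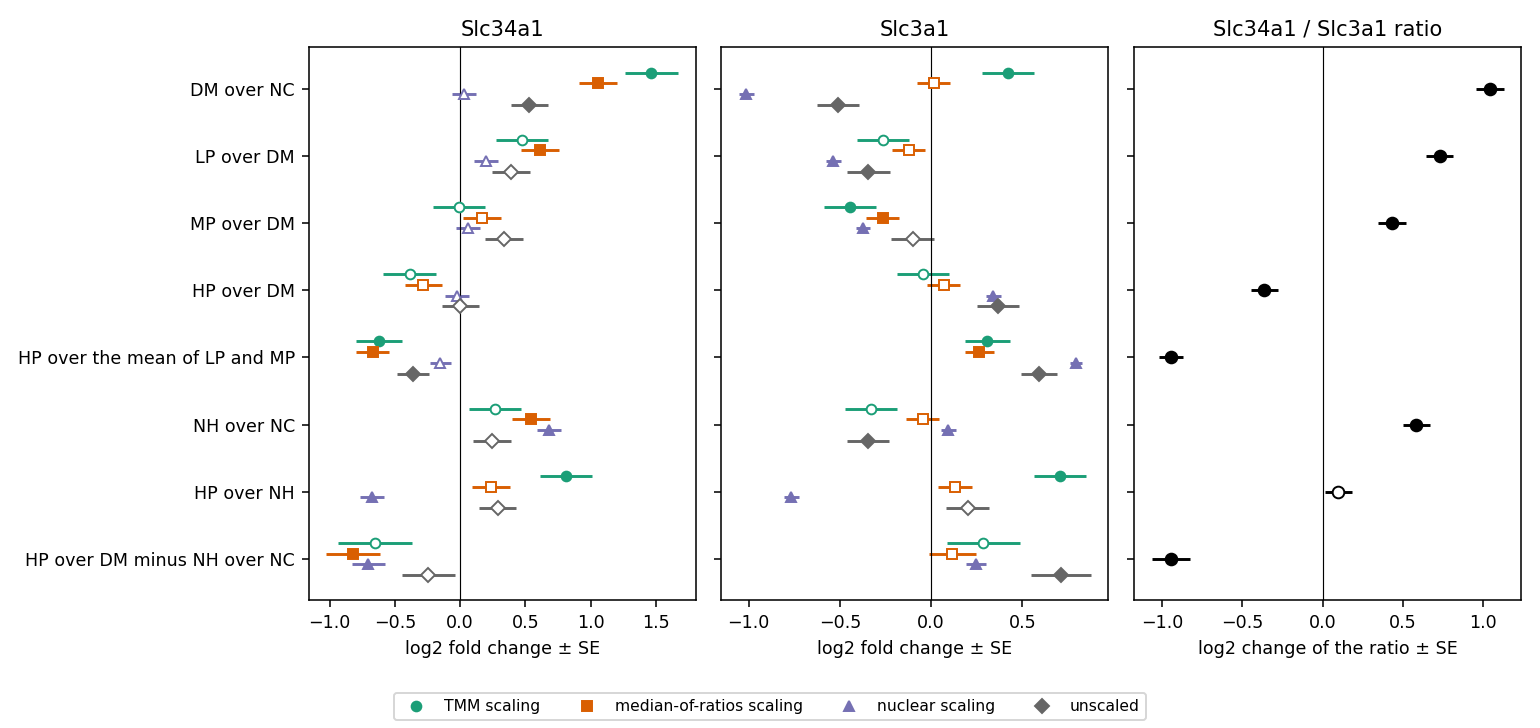
Log2 changes (± SE) of Slc34a1 (left), Slc3a1 (middle) and their ratio (right) in 8 comparisons, with 4 scalings for the single genes. Filled symbols passed an adjusted p of 0.05 in edgeR and open ones did not. The single genes shift with the scaling, for example Slc3a1 in DM over NC from -1.01 to 0.42, while the ratio has 1 value per comparison.

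Beside the 2 transporters, Atp1b1, the beta subunit of the basolateral sodium pump, was described from a list of proximal tubule transport genes. The pump makes the sodium gradient that NaPi-IIa uses. Atp1b1 was not among the proximal tubule markers searched, and which kidney cells its counts came from was not tested. Atp1b1 averaged 62934 ± 2002 counts in DM, 63757 ± 5169 in LP, 57191 ± 5742 in MP, 51789 ± 3223 in HP, 13885 ± 2082 in NH and 21009 ± 1286 in NC (SD, n = 3). Whatever the scaling, DM exceeded NC, 2.11 to 5.71 times (largest adjusted p 3.22e-10 by edgeR), a call shared by 17.2% of the 29 features.

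With flour Atp1b1 was lower at the high dose in both diabetic and healthy rats, and under 3 of 4 scalings at the medium dose. In MP over DM its values were -0.49 under TMM (adjusted p = 0.0066 by edgeR), -0.41 with nuclear scaling, -0.31 with median-of-ratios factors and -0.14 unscaled, where it did not pass. In LP over DM it was higher with median-of-ratios factors (0.24), lower with nuclear scaling (-0.18) and did not pass under the others. In HP over DM it was 1.22 to 1.62 times lower under all 4 scalings (largest adjusted p 0.0427 by edgeR), as were 6.9% of features. Leaving out any 1 of the 6 libraries cost the call at least 1 scaling (highest adjusted p of 0.135). In NH over NC it was 1.12 to 1.51 times lower (largest adjusted p 0.0141 by edgeR), as were 20.7% of features. That call was lost without NC replicate 1 (0.0613) or NH replicate 1 (0.0543).

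The genes most like each transporter were different ones. Likeness was measured as the SD, over the 18 libraries, of the log2 ratio of the 2 counts, which needs no scaling and is given as a description. For Slc34a1 the nearest nuclear genes were Cyp4a2, a fatty acid omega-hydroxylase (SD 0.19), and Atp5f1b, the beta subunit of ATP synthase (0.21). The Slc34a1 to Cyp4a2 count ratio was 0.397 in DM, 0.440 in LP, 0.385 in MP, 0.381 in HP, 0.507 in NH and 0.388 in NC. For Slc3a1 the nearest were Hao2, a peroxisomal hydroxyacid oxidase (SD 0.23), Gclc, which makes the catalytic part of glutamate-cysteine ligase in glutathione synthesis (0.24), and Miox, the oxygenase of myo-inositol (0.30). The Slc3a1 to Hao2 count ratio was 0.955 in DM, 0.633 in LP, 0.837 in MP, 1.01 in HP, 0.897 in NH and 0.762 in NC. That to Gclc was 0.798 in DM, 0.818 in LP, 0.753 in MP, 0.791 in HP and 0.809 in NH, and 0.541 in NC. The Slc3a1 to Miox count ratio was lowest in LP (0.805) and highest in NC (1.43). Miox itself varied little, with group means from 28040 counts in NH to 32318 in HP, so its small SD does not show a shared pattern. Miox was nearly as close to Slc34a1 (SD 0.34) as to Slc3a1. Slc3a1 ranked 11 among the 15 nuclear genes set against Slc34a1 (SD 0.61). Against the 12 mitochondrial genes the SD was 0.34 to 0.49 for Slc3a1 and 0.74 to 0.91 for Slc34a1.

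**Figure D4:**
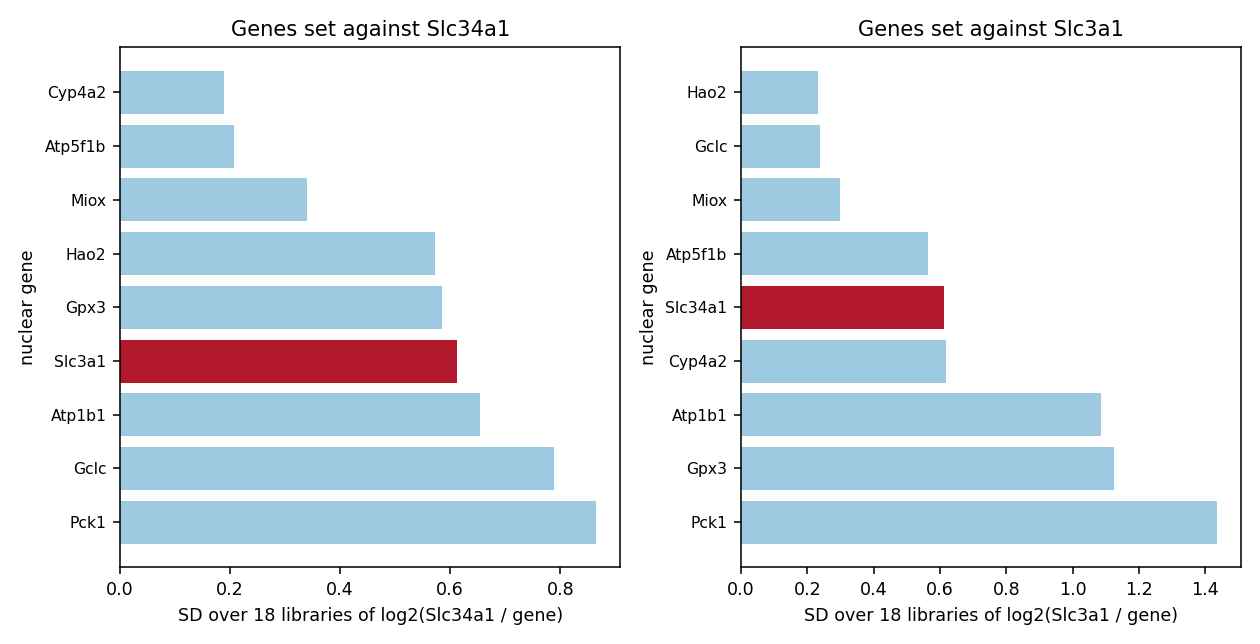
SD over 18 libraries of the log2 count ratio between each nuclear gene named in the text and Slc34a1 (left) or Slc3a1 (right), where a shorter bar means a steadier ratio. The other transporter is in red, at 0.61, and the nearest genes are Cyp4a2 (0.19) for Slc34a1 and Hao2 (0.23) for Slc3a1.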

How the data were processed

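Kidney RNA of 18 libraries was prepared with NEBNext Ultra reagents, which keep no strand information, per the labels' protocols. Without any role, CASAVA 1.7, Bowtie 0.12.2 and the mouse build mm8 appear in the submitters' processing notes. No source used here states the counter, the rat build or the strand option behind the deposited counts. The authors deposited whole-number counts per feature in a table titled as FPKM. All 522 values were whole, and read as FPKM they would assign 5.88 to 12.1 times a library's reads to the listed features, so the unit of counts is a reading of the values.

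Groups and replicate numbers came from the labels. Counts were tested with edgeR 4.0.16 in R 4.3.3 (quasi-likelihood F test, two-sided, no dispersion trend, no filter), in 1 fit over the 18 libraries, or the 12 diabetic ones for the slope. P-values were adjusted over all features by Benjamini-Hochberg, with a threshold of 0.05. The SE was the log2 change divided by the square root of F. Ratios were fitted with the Slc3a1 count as library size and tested by exact permutation. limma 3.58.1, DESeq2 1.42.0, a filter and the replicate block were alternatives. The fitting step was tested on simulated data. In these a minority of features rose and fell in equal number in DM. Broad shifts between groups, such as that of the mitochondrial share, were not simulated. Same-numbered libraries deviated together (r over 0.1 for all 3 numbers) in 2 of 8 pairs of groups, MP with DM and HP with MP. The block changed no call in MP over DM. HP was compared with LP and MP together and not with MP alone, and no call changed there with the block. Replicates differed beyond sampling noise (chi-square per degree of freedom 104 or more in 18 pairs). The members, the gene lists, the motifs and the rule for named genes (the 3 nuclear genes with the smallest SD of the log2 ratio to each transporter, and listed transport genes) were chosen with earlier results of these data known. Gpx3 and Pck1 were named because a scaling turned on them. Promoters came from RefSeq (GRCr8), and both members matched by symbol. Some genes that the rule for named genes selects are not reported here.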

Additional observations from a re-analysis of the deposited data

Results flagged for a closer look

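The effect of the high flour dose on the Slc34a1 to Slc3a1 ratio differed between diabetic and healthy rats when the difference itself was tested. Whether HP and NH had the same dose per kg is not given by the labels, so dose and disease state cannot be told apart. The ratio averaged 0.868 in HP against 1.12 in DM, and 0.811 in NH against 0.541 in NC. The difference between the effects was -0.95 in log2 (adjusted p = 2.02e-05 by edgeR), with values between -1.01 and -0.85 when any 1 library was left out. The mitochondrial share also differed, at 84.8 to 88.7% in HP against 82.0 to 83.3% in DM and 94.4 to 95.5% in NH against 92.7 to 93.3% in NC, and its part in the ratio was not tested.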

How the results depend on the processing

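The edgeR calls of the ratio were the same with limma, a pseudocount, a filter, the replicate block and, except for the slope (same libraries), a fit of only the groups compared. The filter at a mean of 20000 kept all 29 features. The exact permutation test, which cannot go below 0.1 with 3 against 3, gave mean log2 differences of 1.04 (DM over NC), 0.73 (LP over DM), 0.43 (MP over DM), -0.37 (HP over DM) and 0.58 (NH over NC). Leaving out 1 library kept 68 of 69 ratio calls. HP over NH ranged from 0.033 to 0.20. The single genes, with TMM as the main scaling, depended on it, and the cause was not tested. Log2 changes of Slc34a1 with median-of-ratios factors and with DESeq2 alike were 0.61 (LP over DM), 0.17 (MP over DM), 0.54 (NH over NC), 0.24 (HP over NH) and -0.82 (difference between the flour effects in diabetic and healthy rats). With nuclear scaling they were 0.029 (DM over NC), 0.061 (MP over DM), -0.15 (HP over LP and MP), 0.68 (NH over NC), -0.67 (HP over NH) and -0.70 (difference). Without Gpx3 and Pck1 in the nuclear reference, chosen after seeing the data, they were 0.15 (DM over NC), 0.36 (LP over DM), 0.24 (MP over DM, which then passed), 0.77 (NH over NC), -0.64 (HP over NH) and -0.79 (difference). Unscaled counts gave 0.34 (MP over DM), 0.0011 (HP over DM) and 0.29 (HP over NH), and a fit of only the groups compared 0.39 (LP over DM, which then passed, adjusted p = 0.0031 by edgeR) and 0.0065 (MP over DM). For Slc3a1, median-of-ratios factors and DESeq2 alike gave 0.014 (DM over NC), 0.070 (HP over DM) and 0.13 (HP over NH). Nuclear scaling gave -1.01 (DM over NC), -0.54 (LP over DM), 0.34 (HP over DM), 0.094 (NH over NC), -0.77 (HP over NH) and 0.25 (difference), and without Gpx3 and Pck1 -0.89, -0.37, 0.34, 0.19, -0.74 and 0.16 in the same order, with a dose slope of 0.11. Unscaled counts gave -0.51 (DM over NC), -0.34 (LP over DM), -0.10 (MP over DM), 0.37 (HP over DM), -0.34 (NH over NC), 0.20 (HP over NH), 0.12 (slope) and 0.71 (difference). Only the groups compared gave -0.35 (LP over DM), 0.044 (HP over DM), -0.37 (NH over NC) and 0.73 (difference), of which LP over DM (adjusted p = 0.00079 by edgeR), NH over NC (0.042) and the difference (0.0076) then passed, and limma 0.30 (HP over LP and MP, adjusted p = 0.0562). The replicate block, where shared numbers did not pair the libraries by the check, moved Slc34a1 in LP over DM to 0.48 (adjusted p = 0.0404 by edgeR) and Slc3a1 in NH over NC to -0.34 (adjusted p = 0.0209), and changed no other call. Leaving out 1 library at a time gave, for Slc34a1, -0.15 to 0.18 (MP over DM), -0.56 to -0.18 (HP over DM), -0.79 to -0.41 (HP over LP and MP), 0.38 to 1.02 (HP over NH) and -0.82 to -0.44 (difference). For Slc3a1 it gave 0.0068 to 0.46 (DM over NC), -0.55 to -0.26 (MP over DM), -0.15 to 0.083 (HP over DM), 0.21 to 0.44 (HP over LP and MP), -0.46 to -0.27 (NH over NC), 0.33 to 0.83 (HP over NH) and -0.0040 to 0.032 (slope). Depth is unknown, since the listed features are part of each library, and counting error of the members was 0.445 to 0.685%.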

Other observations

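Among the 120 pairs of nuclear genes, the SD of the log2 count ratio over the 18 libraries ranged from 0.15 to 1.57, with a median of 0.58. Slc34a1 and Slc3a1, with 0.61, were more alike than some of these pairs and less alike than 66 of them. Within groups, the level relative to the 14 other nuclear genes varied by 0.817 to 4.29% (CV) for Slc3a1 and by 3.04 to 11.7% for Slc34a1. NH replicate 1 and HP replicate 1 had the lowest Slc34a1 counts of their groups (21300 and 30138), the lowest ratios to Slc3a1 (0.746 and 0.744) and the highest mitochondrial shares (95.5 and 88.7%).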
